A study of Mus musculus with 6 samples.

Results

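The genes examined here are 55 mouse genes that encode writers, erasers and partners of histone and DNA methylation, chosen by symbol: demethylases, methyltransferases for H3K4, H3K9, H3K36 and H3K79, the Polycomb complexes, and the DNA methylation enzymes. Their UTX binding sites were the rows of the authors' deposited table assigned to one of those symbols, 45 of 6739 sites. In all, 34 of the 55 genes had at least 1 such site. UTX, encoded by Kdm6a, is a demethylase that removes methyl groups from lysine 27 of histone H3.

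UTX occupancy was profiled by CUT&Tag, in which an antibody tethers a transposase that cuts and tags the DNA around the bound protein. The cells were CD8 T cells sorted as Ly108 positive and CXCR6 negative, called progenitors in the labels, from the pancreatic lymph node of mice with the NY8.3 transgene, whose CD8 T cells carry a transgenic receptor that recognises an islet protein. Tested were 3 samples from UTXTCD.NY8.3 mice, in which UTX was deleted in T cells, beside 3 samples from WT NOD.NY8.3 mice, so all 6 samples carried NY8.3. The comparison asks which regions UTX binds directly. The Cre driver, the deleted part of Kdm6a, age, sex and whether animals were pooled are not stated in the labels, and nothing says that the samples came from separate animals, so p-values measure only the spread between these samples.

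Histone methyltransferases place methyl groups on lysines of histone tails and demethylases take them off, and the outcome depends on the residue: H3K4 and H3K36 methylation mark active promoters and transcribed gene bodies, while H3K9 and H3K27 methylation mark silent chromatin. Polycomb repressive complex 2 (PRC2) writes H3K27 methylation, the mark that UTX erases, and Polycomb repressive complex 1 (PRC1) ubiquitinates histone H2A. DNA methyltransferases and TET dioxygenases add and oxidise the methyl group of cytosine, and in CD8 T cells both DNA and H3K27 methylation are known to be remodelled as progenitors differentiate.

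Whole reads per library were recovered from the group means of the deposited table at 6735 sites. The libraries carry no replicate number and are given by depth, deepest first. Relative to a mean of 1, depth was 1.93, 1.07 and 0.00577 in the UTX-deficient libraries and 1.28, 0.916 and 0.792 in the WT libraries. The last UTX-deficient library was thus near-empty, with a depth 335 times below that of the deepest one, and its 0 at a site carries almost no weight. Normalized reads are reads divided by relative depth. The site at Kdm6a, the targeted gene, held 8, 12 and 0 reads in UTX-deficient libraries against 65, 48 and 35 in WT libraries, with a fold of -2.73 on the log2 scale (FDR 7.14e-11) by the authors' deposited table. That is 13.4% of the WT signal left (exact 95% interval 7.95 to 21.4, pooled reads per depth). Such reads measure UTX bound at its own gene and do not check the deletion, and a loss of UTX in each cell and a mixture of cells with and without it cannot be told apart. A site lay at 5 of 6 CD8 T cell markers, all but Cd3g, and at the progenitor markers Tcf7, Slamf6 and Ccr7, each lower in UTX-deficient cells, against 0 of 6 for B cells, 0 of 7 for myeloid and dendritic cells and 0 of 3 for NK cells. Cd4 and Pecam1 each carried a lower site as well, from lists of 3 CD4 and regulatory T cell and 6 pancreatic and stromal markers.

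At 44 of the 45 sites of these enzymes the UTX signal of UTX-deficient cells was lower, and 1 site, at Ash1l, was listed as higher. By gene, 33 of 55 (60%) had a lower site, while among all protein-coding genes of the annotation 4836 of 21896, or 22.1%, had one. The genes with a site had a median length of 56759 bp and those without one 43560 bp, against 17149 bp for all protein-coding genes, and the part of length in these shares was not tested. Direction at listed sites says little by itself, because 99.7% of all listed sites were lower; of all 8293 sites the authors tested, 81% were listed as lower and 0.253% as higher. A single site was found at 26 of the 34 genes, 2 sites at Kdm2a, Kdm2b, Kdm3b, Setd1b, Nsd3 and Dnmt3a, 3 at Cbx7 and 4 at Jarid2.

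At the 44 lower sites together, the UTX-deficient libraries held 76, 144 and 0 reads and the WT libraries 2436, 1919 and 1355. Per site this was 0.893, 3.05 and 0 normalized reads in the UTX-deficient libraries, against 43.3, 47.6 and 38.9 in the WT libraries. The group means were 1.31 ± 1.57 in UTX-deficient cells and 43.3 ± 4.37 in WT cells (SD, n = 3 each), and without the near-empty library UTX-deficient cells averaged 1.97. Each WT library exceeded each UTX-deficient library at all 44 sites, as it did at 99.7% of all listed sites. The separation of the groups given below for single genes and classes is therefore shared by almost all listed sites. With 3 libraries a group, 0.1 is the smallest two-sided p an exact permutation test can reach. In limma without the near-empty library, the log2 differences at the 44 sites ran from -4.79 to -2.55 (standard errors 0.36 to 0.71). The table lists a site because the authors' FDR called it, so a fit to the same reads is no independent test; 99.7% of the 6735 sites fitted were called lower. The signal left in UTX-deficient cells had a median of 4.02% of WT over the 44 sites (quartiles 2.58 and 5.14), beside 4.90% over all lower sites (quartiles 3.30 and 7.13), and lay below that 4.90% at 32 of the 44.

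**Figure D1:**
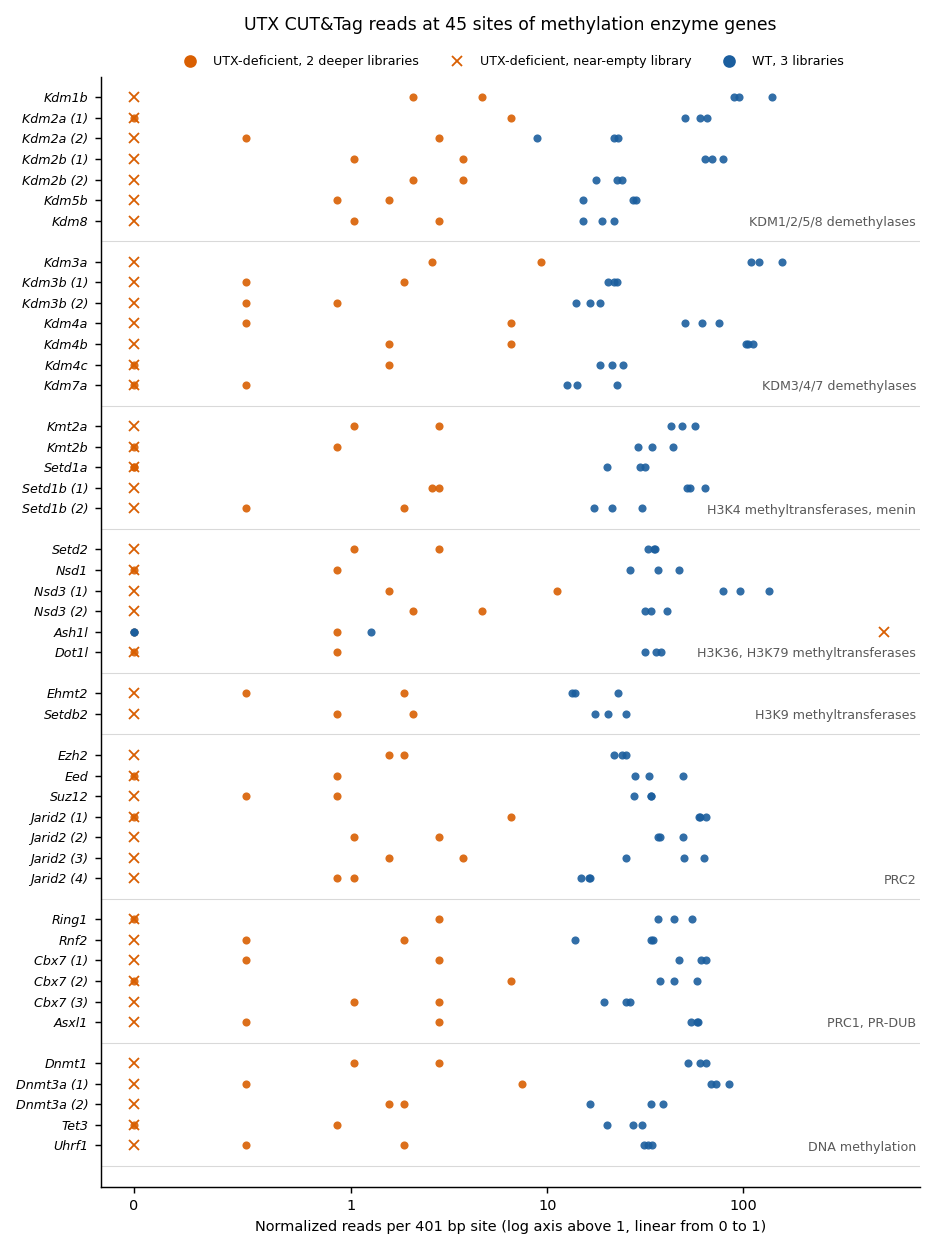
Normalized reads (linear up to 1, log axis above) in each library at the 45 sites, with the UTX-deficient libraries in orange (cross: the near-empty one) and the WT libraries in blue; sites of 1 gene are numbered from the most negative fold. WT libraries lie above UTX-deficient libraries at each lower site, and at Ash1l the reads lie in the near-empty UTX-deficient library.

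**Figure D2:**
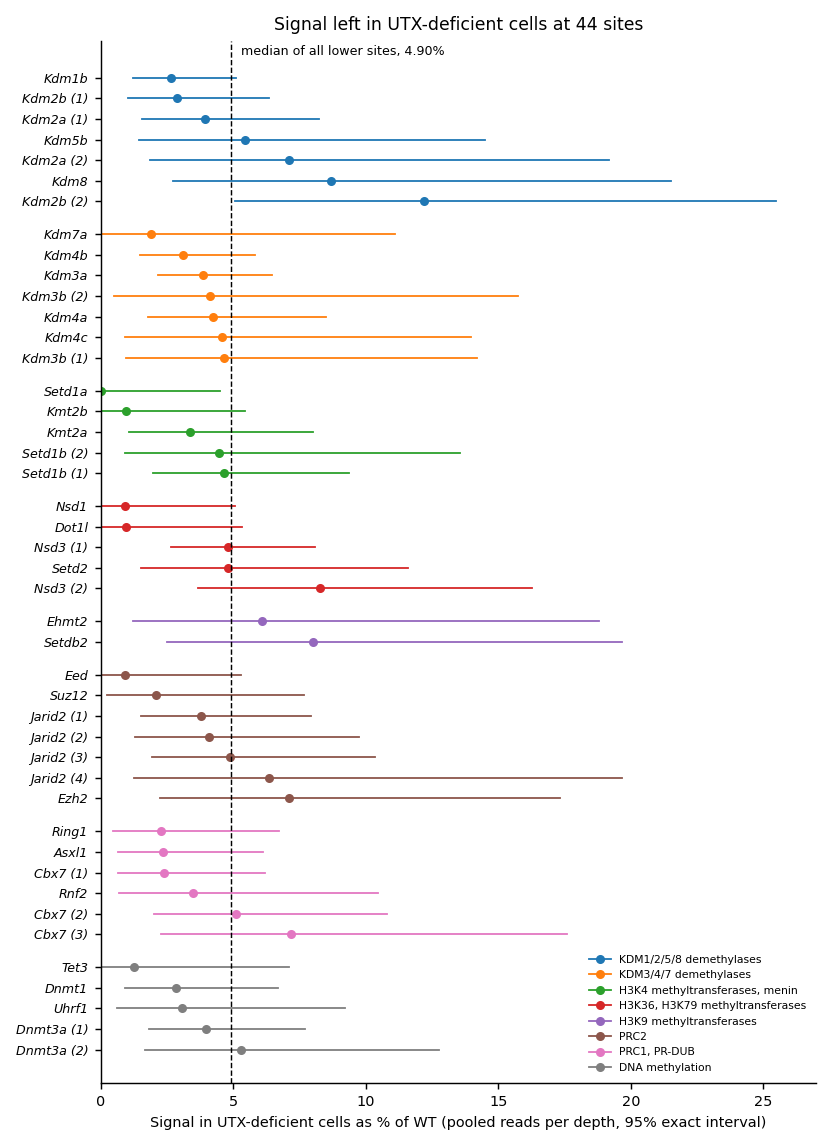
Signal left at each of the 44 lower sites, as UTX-deficient reads per depth in percent of WT, with exact 95% intervals that cover counting error only and a dashed line at 4.90%, the median of all lower sites. The points run from 0% at Setd1a to 12.2% at the second Kdm2b site.

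The site sequences outside gene starts could not be read here, but 18 sites, at 18 genes, covered a transcription start of their own gene. The start windows below show what these bound starts look like for the PRC2 genes, then for the PRC1 ligase Ring1, the PR-DUB subunit Asxl1, a demethylase and the DNA methylation reader Uhrf1. Each runs from 170 bases before to 30 after the start, 5′ to 3′ on the gene's strand (RefSeq, GRCm38.p6), and capitals mark matches to the motifs listed after them. The windows are chr6:47595001-47595200 on the minus strand for Ezh2, chr7:89980947-89981146 (minus) for Eed, chr11:79992936-79993135 (plus) for Suz12 and chr13:44730604-44730803 (plus) for Jarid2. The others are chr17:34024651-34024850 (minus) for Ring1, chr2:153345660-153345859 (plus) for Asxl1, chr6:71632888-71633087 (minus) for Kdm3a and chr17:56304143-56304342 (plus) for Uhrf1.
Ezh2: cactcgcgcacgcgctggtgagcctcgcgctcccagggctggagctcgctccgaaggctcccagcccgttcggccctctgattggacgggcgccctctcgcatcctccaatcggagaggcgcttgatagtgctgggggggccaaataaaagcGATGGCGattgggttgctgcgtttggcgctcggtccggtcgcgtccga
Eed: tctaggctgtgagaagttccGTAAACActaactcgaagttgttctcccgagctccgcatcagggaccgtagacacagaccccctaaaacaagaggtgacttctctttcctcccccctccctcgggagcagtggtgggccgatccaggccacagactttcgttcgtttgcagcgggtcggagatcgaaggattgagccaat
Suz12: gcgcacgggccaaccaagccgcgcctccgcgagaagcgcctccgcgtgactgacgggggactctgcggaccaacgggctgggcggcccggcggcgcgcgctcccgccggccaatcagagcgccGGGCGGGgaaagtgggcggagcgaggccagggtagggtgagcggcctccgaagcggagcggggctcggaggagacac
Jarid2: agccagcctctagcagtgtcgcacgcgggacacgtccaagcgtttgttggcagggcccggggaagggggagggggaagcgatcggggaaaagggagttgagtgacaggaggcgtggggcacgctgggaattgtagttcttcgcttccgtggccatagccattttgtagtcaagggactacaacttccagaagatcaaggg
Ring1: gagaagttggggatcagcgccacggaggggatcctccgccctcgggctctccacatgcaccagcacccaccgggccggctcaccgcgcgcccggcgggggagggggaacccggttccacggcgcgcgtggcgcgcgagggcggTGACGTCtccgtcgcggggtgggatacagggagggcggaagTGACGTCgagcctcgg
Asxl1: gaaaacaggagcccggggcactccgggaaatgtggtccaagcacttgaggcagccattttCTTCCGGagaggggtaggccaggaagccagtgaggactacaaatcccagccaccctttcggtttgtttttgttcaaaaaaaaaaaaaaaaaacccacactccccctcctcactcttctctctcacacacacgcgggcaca
Kdm3a: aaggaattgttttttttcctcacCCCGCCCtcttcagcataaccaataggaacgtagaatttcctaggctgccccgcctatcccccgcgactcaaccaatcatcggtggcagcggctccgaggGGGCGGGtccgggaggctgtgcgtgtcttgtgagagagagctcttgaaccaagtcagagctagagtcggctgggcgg
Uhrf1: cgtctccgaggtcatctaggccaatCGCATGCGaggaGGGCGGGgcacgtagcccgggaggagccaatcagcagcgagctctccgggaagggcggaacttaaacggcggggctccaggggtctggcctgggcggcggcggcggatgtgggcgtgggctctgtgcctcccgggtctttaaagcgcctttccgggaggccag

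In these letters Ezh2 held a YY1 motif (GATGGCG), Eed a forkhead motif (TGTTTAC, here on the opposite strand), Suz12 a GC box (CCCGCCC), and Ring1 a pair of CRE motifs (TGACGTC). Asxl1 held an ETS motif (CCGGAAG), Kdm3a a pair of GC boxes, and Uhrf1 a GC box and overlapping NRF1 matches (GCATGCG) on both strands. The 200 bases shown for Jarid2 held none of the 10 motifs searched. In the longer windows of 300 bases, Jarid2 and Asxl1 each also held a GC box outside the bases shown. The other motifs searched were RUNX (TGTGGTT), TCF/LEF (CTTTGAT), AP-1 (TGANTCA) and NF-kappaB (GGGACTT), on both strands of windows of 300 bases. The GC box occurred in 11 of 21 windows (52.4%) of these enzymes covered by a listed site, whichever gene that site was assigned to, in 62.8% of the 3325 covered windows of all genes and in 25.6% of all 32851 windows. The ETS motif occurred in 3 of the 21 (14.3%), in 20.9% of covered and 8.86% of all windows, and the CRE motif in 2 (9.52%), 7.73% and 3.21%. Among these, the windows of Asxl2, with an ETS motif, and of 1 Kdm2b start, with a CRE motif, were covered by a site assigned to another gene. The covered windows of these enzymes had a median of 30 CpGs and 67% GC, against 23 CpGs and 62.7% GC in their 39 windows not covered, and 24 CpGs and 64% GC in covered windows of all genes. RUNX, TCF/LEF and NF-kappaB matches were in 0 of the 21 windows, which says only that those letters are not in them.

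The demethylases had an assigned lower site at 11 of 14 genes (78.6%). The H3K4, H3K9, H3K36 and H3K79 methyltransferases with menin had one at 10 of 19 (52.6%), a difference that was not tested. This order depended on the assignment and reversed when any lower site within 1 kb of a gene was counted. The KDM1, KDM2, KDM5 and KDM8 class then had 4 of 8 genes and the KDM3, KDM4 and KDM7 class 5 of 6. The methyltransferase classes had 6 of 6 (H3K4 with menin), 6 of 7 (H3K36 and H3K79) and 2 of 6 (H3K9). The assigned demethylase sites had a median fold of -3.31 on the log2 scale by the authors' deposited table, smaller in size than the -3.51 over all lower sites. Fold and signal left did not always rank alike. The KDM3, KDM4 and KDM7 class had a median fold of -3.34, yet its median of 4.13% left lay below the 4.90% over all lower sites. The KDM1, KDM2, KDM5 and KDM8 class, with 5.43% left, lay above it. The KDM3, KDM4 and KDM7 enzymes, most of which remove H3K9 methylation, had an assigned lower site at each of 6 genes. Kdm3a, an H3K9 demethylase, had the highest WT level of all 45 sites: 5, 10 and 0 reads in UTX-deficient libraries against 153, 144 and 87 in WT libraries, or 3.97 ± 4.81 and 129 ± 25.0 normalized reads (SD, n = 3 each). Without the near-empty library, UTX-deficient cells averaged 5.95 there. The groups did not overlap, as at 99.7% of all listed sites, and the site (chr6:71632852-71633252) spans a start of the gene. Its log2 fold was -4.36 (FDR 5.04e-17) in the authors' deposited table, and 3.87% of the WT signal was left (95% interval 2.15 to 6.47).

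Kdm4b, which demethylates H3K9 and H3K36, held 3, 7 and 0 reads in UTX-deficient libraries and 135, 94 and 89 in WT libraries, again without overlap. Its site (chr17:56325652-56326052, 118 bp from an end of the gene) had the smallest FDR of all 45 sites, 1.86e-23, and a fold of -4.73 on the log2 scale, both by the authors' deposited table. The related Kdm4a and Kdm4c had 1 start-covering site each, with 4.22% and 4.58% of WT signal left. Kdm3b, the paralog of Kdm3a, had 2 weaker sites on chromosome 18, with 21.6 and 16.3 normalized reads in WT. The site assigned to Kdm7a was centred 52540 bp upstream of the gene's start, and its UTX-deficient libraries held 1 read in all.

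Among the demethylases for H3K4 and H3K36, 5 of 8 genes had a lower site, and the median fold, on the log2 scale, was -3.29 by the authors' deposited table. Kdm1b, an H3K4 demethylase of the LSD family, held 4, 5 and 0 reads in UTX-deficient libraries against 179, 82 and 75 in WT libraries. The lowest WT library was far above the highest UTX-deficient one, and 2.66% of the signal was left (95% interval 1.20 to 5.10). The log2 fold at this site (chr13:47043136-47043536) was -4.81 (FDR 3.08e-18) in the authors' deposited table; it also lies nearest to an end of a neighbouring gene, Tpmt. Its paralog Kdm1a had no listed site.

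Kdm2a and Kdm2b, which demethylate H3K36 and bind unmethylated CpG islands, had 2 sites each, 1 strong and 1 weak in WT. At Kdm2b, the site at chr5:122990329-122990729 had 2, 4 and 0 reads in UTX-deficient libraries against 81, 72 and 55 in WT libraries. The other, chr5:122900265-122900665, at an internal start, had 4, 4 and 0 against 29, 22 and 14. These leave 2.86% (1.04 to 6.33) and 12.2% (5.05 to 25.5) of the WT signal, the second being the highest of the 44 sites. At Kdm2a, the site at chr19:4396964-4397364 had the middle fold of all 45, -3.86, and the site at chr19:4333607-4334007 the largest FDR, 0.0380, with a fold of -2.34 in the authors' deposited table. That weakest call rested on 1, 3 and 0 reads in UTX-deficient libraries against 28, 21 and 7 in WT libraries, which do not overlap. Kdm5b, an H3K4 demethylase, had a site centred 3217 bp upstream of its start and Kdm8, a demethylase of the same family of dioxygenases, one 316 bp downstream, while Kdm5a and Kdm5c had none listed.

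**Figure D3:**
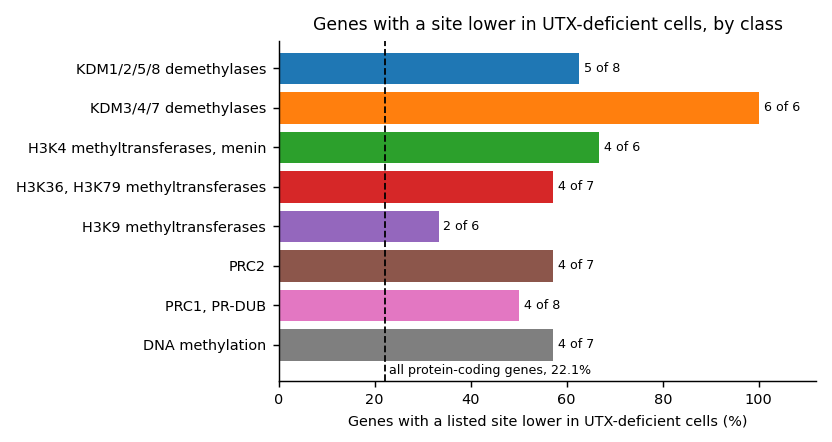
Percent of the genes in each of the 8 classes with a site lower in UTX-deficient cells, with the line at the 22.1% of all protein-coding genes. The share runs from 33.3% for H3K9 methyltransferases to 100% for the KDM3, KDM4 and KDM7 demethylases.

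Of the H3K4 methyltransferases and menin, 4 of 6 genes had a lower site. Setd1a and Kmt2b, catalytic subunits of COMPASS-type H3K4 methyltransferase complexes, had the least signal left in the class. Kmt2b (chr7:30588682-30589082) held 0, 1 and 0 reads in UTX-deficient libraries and 37, 40 and 27 in WT libraries, a fold of -4.84 on the log2 scale (FDR 1.28e-08) by the authors' deposited table. The ratio left 0.953% of the signal, with a wide interval of 0.0239 to 5.43. Setd1a held 0 reads in all 3 UTX-deficient libraries against 38, 29 and 16 in WT libraries. Setting 3 counts over the group against the WT reads as counted made it 27.9-fold lower. The exact 95% interval, which also covers counting error in WT, allowed up to 4.5% of the WT signal left. Setd1a was the only one of the 44 sites with no UTX-deficient read. Kmt2a, which with its partner menin keeps Hox genes active, held 2, 3 and 0 reads in UTX-deficient libraries against 62, 52 and 34 in WT libraries at its start. Setd1b had 2 sites, the stronger (chr5:123150958-123151358) with 5, 3 and 0 reads in UTX-deficient libraries against 81, 49 and 41 in WT libraries. WT and UTX-deficient libraries were apart at all 5 sites of the class, as at 99.7% of all listed sites. Kmt2e and Men1, which encodes menin, had no site assigned to them.

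Of the H3K36 and H3K79 methyltransferases, 4 of 7 genes had a lower site. Dot1l, the H3K79 methyltransferase, had the most negative fold of all 45 sites, -4.88 (FDR 4.81e-09) in the authors' deposited table. Its site (chr10:80754899-80755299), which spans its start, held 0, 1 and 0 reads in UTX-deficient libraries against 46, 35 and 25 in WT libraries. Nsd1, an H3K36 methyltransferase, held 0, 1 and 0 reads in UTX-deficient libraries against 47, 43 and 21 in WT libraries. Nsd3, of the same family, had the most bound site of the class (chr8:25601347-25601747): 3, 12 and 0 reads in UTX-deficient libraries against 123, 124 and 62 in WT libraries, with 4.81% left (2.66 to 8.06). Its 12 reads were the most in any UTX-deficient library at the 44 sites, still well under each WT value. Setd2, which trimethylates H3K36 in transcribed genes, kept 4.81% as well (1.53 to 11.6). Setd5 and Nsd2 had no site assigned to them.

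Ash1l, an H3K36 methyltransferase that opposes Polycomb silencing, carried the 1 site listed as higher. By the authors' deposited table its fold was 3.68 on the log2 scale (FDR 0.0329). The reads behind it were 0, 1 and 3 in UTX-deficient libraries and 0, 0 and 1 in WT libraries, so that the near-empty library gave 99.8% of the group's normalized reads. Without that library the log2 difference in limma was 0.08 ± 0.30 (SE; adjusted p = 0.788 over the 6735 listed sites fitted), where 0.0742% of these sites were called higher.

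H3K9 methyltransferases were the class with the fewest genes holding a listed lower site, 2 of 6 (33.3%), against 22.1% of all protein-coding genes. The count was 1 at an FDR of 0.01. Setdb2 (chr14:59440714-59441114, spanning its start) held 4, 1 and 0 reads in UTX-deficient libraries against 26, 16 and 20 in WT libraries, with a fold of -2.92 on the log2 scale (FDR 0.000849) by the authors' deposited table. Ehmt2, which dimethylates H3K9, held 1, 2 and 0 against 17, 21 and 11. Both sites were low in WT, and the groups did not overlap at either, as at 99.7% of all listed sites. Ehmt1, Setdb1, Suv39h1 and Suv39h2 had no listed site.

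PRC2, the complex whose mark UTX removes, had a lower site at 4 of 7 genes: Ezh2, Eed, Suz12 and Jarid2, each with a site over its start. Eed, a core subunit that binds methylated H3K27, held 0, 1 and 0 reads in UTX-deficient libraries against 36, 45 and 26 in WT libraries, a fold of -4.84 on the log2 scale (FDR 2.35e-08) by the authors' deposited table. Suz12, another core subunit, held 1, 1 and 0 reads in UTX-deficient libraries against 43, 31 and 22 in WT libraries. Ezh2, the catalytic subunit, held 3, 2 and 0 reads in UTX-deficient libraries against 28, 23 and 19 in WT libraries. The groups were apart at each gene, as at 99.7% of all listed sites. The signal left was 0.926% at Eed (0.0232 to 5.27), 2.07% at Suz12 (0.247 to 7.67) and 7.08% at Ezh2 (2.23 to 17.3), with intervals that overlap.

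Jarid2, a PRC2 accessory subunit that helps recruit the complex, had 4 sites spread over 81159 bp, more than any other of these genes. The site at the start, chr13:44730435-44730835, held 2, 3 and 0 reads in UTX-deficient libraries against 48, 45 and 29 in WT libraries. The strongest, chr13:44733601-44734001, lay 2530 bp downstream of the nearest start, with 0, 7 and 0 reads in UTX-deficient libraries against 82, 55 and 47 in WT libraries. The inner sites at chr13:44799979-44800379 and chr13:44811594-44811994 held 3, 4 and 0 against 64, 58 and 20, and 2, 1 and 0 against 19, 15 and 13. In order along the gene the log2 folds were -4.08, -4.32, -3.77 and -2.75 in the authors' deposited table. No UTX-deficient library reached the lowest WT library at any of the 4, as at 99.7% of all listed sites. Ezh1, Mtf2 and Phf19 had no listed site.

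In PRC1 and the PR-DUB deubiquitinase, 4 of 8 genes had a lower site: the E3 ligases Ring1 and Rnf2, the chromodomain subunit Cbx7 and the PR-DUB subunit Asxl1. Asxl1 (chr2:153345456-153345856) held 1, 3 and 0 reads in UTX-deficient libraries against 69, 54 and 46 in WT libraries, a fold of -4.79 on the log2 scale (FDR 1.30e-14) by the authors' deposited table. Ring1 held 0, 3 and 0 reads in UTX-deficient libraries against 47, 50 and 35 in WT libraries, and Rnf2, its paralog, 1, 2 and 0 against 44, 31 and 11. At none of the 3 genes did the groups overlap, which also holds at 99.7% of all listed sites. Cbx7 had 3 sites over 22680 bp. Its strongest, chr15:79932175-79932575, lay 271 bp downstream of its start and held 1, 3 and 0 reads in UTX-deficient libraries against 60, 56 and 51 in WT libraries, with a fold of -4.77 on the log2 scale (FDR 5.99e-14) by the authors' deposited table. Those at chr15:79927644-79928044 and chr15:79950324-79950724 had folds of -3.24 and -3.09 there, in the authors' deposited table. They left 5.10% and 7.18% of the WT signal. Bmi1, Cbx2 and Bap1 had no listed site, and Asxl2 had none assigned to it.

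Among the DNA methylation genes, 4 of 7 had a lower site: Dnmt1, Dnmt3a, Tet3 and Uhrf1. Dnmt1, the maintenance methyltransferase, held 2, 3 and 0 reads in UTX-deficient libraries against 77, 48 and 51 in WT libraries, a fold of -4.64 on the log2 scale (FDR 2.68e-15) by the authors' deposited table. The site (chr9:20952639-20953039) covers one of its downstream starts. Dnmt3a, a de novo methyltransferase, had 2 sites inside the gene. The stronger (chr12:3870967-3871367) held 1, 8 and 0 reads in UTX-deficient libraries against 93, 77 and 54 in WT libraries, with 3.98% left (1.80 to 7.70). Uhrf1, which brings Dnmt1 to replicated DNA, held 1, 2 and 0 against 40, 30 and 27 over a start. Tet3 held 0, 1 and 0 against 39, 25 and 16. All 4 genes had WT libraries above UTX-deficient libraries, as had 99.7% of all listed sites. Dnmt3b, Tet1 and Tet2 had no listed site. The Uhrf1 site and that of the neighbouring Kdm4b lay 21485 bp apart.

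Per class, the median signal left ran from 2.92% for PRC1 and PR-DUB and 3.07% for DNA methylation to 5.43% for the KDM1, KDM2, KDM5 and KDM8 demethylases and 7.03% for the H3K9 methyltransferases. Sites per class numbered 2 to 7, share the same libraries, and were not tested against each other. The class with the lowest WT level, the H3K9 methyltransferases (median 18.9 normalized reads), was also that with the smallest fold, -2.77 as a median in the authors' deposited table.

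**Figure D4:**
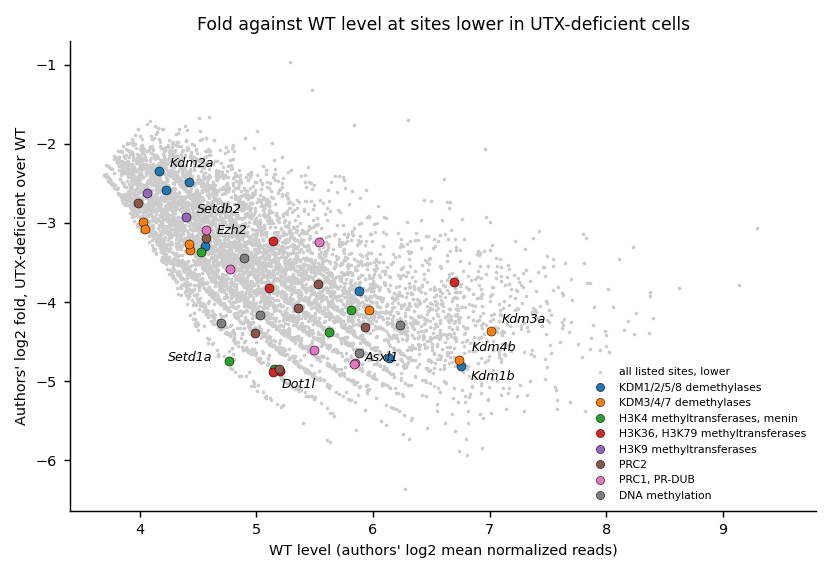
The authors' deposited log2 fold (vertical) against the authors' log2 mean normalized reads in WT for the 44 lower sites, coloured by class, over all lower sites in grey. Sites with more reads in WT mostly have a more negative fold, and both axes share the WT reads.

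Position was read against the annotation. Of the 45 sites, 42 (93.3%) overlapped their gene, against 76.2% of all placed sites, and 21 (46.7%) lay within 1 kb of a gene end, against 53.0%. For the 33 sites of genes in the start table, 18 (54.5%) covered a start of that gene, against 45.7% of all such sites, and in 14 of the 18 (77.8%) the site's middle was upstream of the start, against 70.4%. The assigned gene was the one with the nearest end at 40 of the 45 sites (88.9%), against 81.9% of all listed sites. The exceptions, named after their values were seen, were sites of Kdm1b, Kdm2a and Setdb2 and 2 sites of Cbx7.

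**Figure D5:**
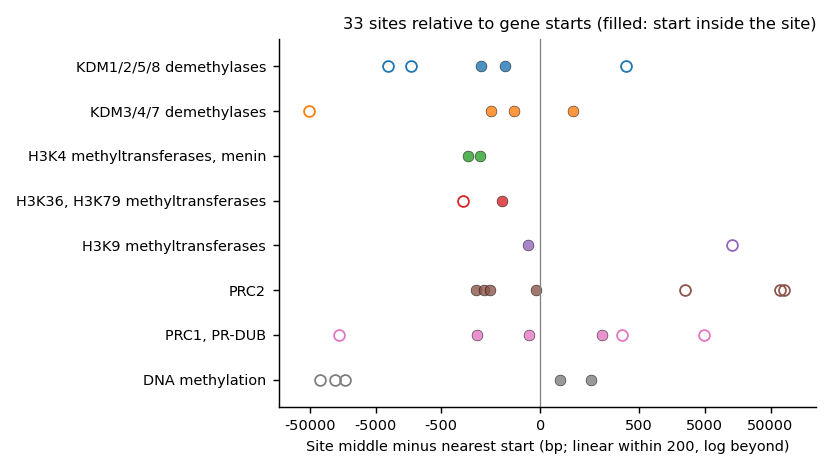
Distance from the site's middle to the nearest start of its gene, in bp on an axis linear within 200 bp and logarithmic beyond, for the 33 sites of genes with a listed start, by class. Filled points are the 18 sites that contain a start. The farthest upstream, at Kdm7a, is 52540 bp from the start, and the farthest downstream, at Jarid2, is 80523 bp from it.

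Of 74 related genes outside the 55, 36 (48.6%) had a lower site, against 22.1% of all protein-coding genes, and 0 had a higher one. Of all sites tested, 0.253% were listed as higher. The median fold, on the log2 scale, was -3.55 over 48 sites in the authors' deposited table. Methyl-CpG binding and base excision genes had a lower site at 9 of 12, lysine methyltransferases at 11 of 21 and Polycomb partners at 11 of 23. Arginine methyltransferases had one at 3 of 9 and further demethylases at 2 of 9 (22.2%), the latter near the share of all protein-coding genes. The most negative folds of 4 of these lists were at Mbd3, a methyl-CpG-binding-family subunit of the NuRD repressor (-5.19), Carm1, an arginine methyltransferase (-4.68), Setmar (-4.57) and Jmjd6 (-3.46), each in the authors' deposited table. Mbd3 held 2, 5 and 0 reads in UTX-deficient libraries against 144, 105 and 83 in WT libraries.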

How the data were processed

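UTX CUT&Tag was measured in 6 samples, and the 1 table used holds the authors' own comparison of UTX-deficient and WT cells. Build mm10 and, in no stated order or role, DiffBind, MACS2, Picard, SAMtools, Bowtie2, cutadapt and FastQC are named per the submitters' processing notes. The sources used here give neither versions nor whether peaks were called per sample. Per the file headers, each site has log2 concentrations per group (mean normalized reads, lowest value 0), a log2 fold, a p-value and an FDR. The deposited p-value and FDR are the authors' own, each listed FDR is under 0.05, and the fold is negative where UTX-deficient cells are lower. The deposited fold is not the plain difference of the group concentrations. At the Kdm2a site with the largest FDR these were 0.143 in UTX-deficient and 4.16 in WT cells, with a fold of -2.34. A smaller deposited fold therefore need not mean more signal left. From FDR over p-value, 8293 sites had been tested, of which 1554 are outside the table.

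The 55 genes and all lists were chosen with earlier results of these data known. Each gene is accounted for by its number of sites. The sites named by rule are that at Kdm6a, per class those with the most negative fold and the highest WT concentration, each higher site, each site of a gene with 3 or more, those with the largest and smallest FDR, those nearest to and farthest from the middle fold, and the most negative site of each related list, of which that of the Polycomb partners is not reported here. Values of further genes were chosen after they were seen. Symbols were matched to the RefSeq annotation (GRCm38.p6, which is the assembly behind mm10), and 43 of the 55 genes were in its start table. Neither gene levels nor IgG libraries were used here.

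Each group concentration is a sum over 3 libraries of whole reads times what 1 read is worth, and was solved for those whole reads. Of sums shifted at random, 0.0% could be solved for UTX-deficient cells and 0.4% for WT cells. Tests on the recovered reads used limma 3.58.1 in R 4.3.3 (empirical Bayes with trend, log2(normalized reads + 1), Benjamini-Hochberg over the 6735 listed sites fitted). Simulated data had a 4-fold drop planted at 200 of 6735 sites, a smaller and rarer change than in these data. There the fit with all libraries recovered few of the planted changes and the fit without the near-empty library most of them. No call rests on the fit with all libraries. A fold on that scale understates the change at low levels. Signal left is pooled reads per depth, UTX-deficient over WT, with exact conditional (Clopper-Pearson) 95% intervals. Without molecular identifiers, reads are not independent molecules, so these intervals and the floor of 3 counts cover counting error only. Calls were retried at an FDR of 0.01, a minimum absolute log2 fold of 2, distance limits of 10 and 1 kb, pseudocounts of 0.5 and 4, a minimum mean of 10 normalized reads, and without each library.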

Additional observations from a re-analysis of the deposited data

Results flagged for a closer look

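The Ash1l site drew attention because its reads lie in data that carry almost no depth: 3 of the 4 UTX-deficient reads came from the near-empty library, against 0, 0 and 1 reads in WT libraries.

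Further sites lay within 1 kb of one of the 55 genes but were assigned to another gene, so the counts of sites and of genes with a site do not include them; the counts of covered start windows do. Their log2 folds in the authors' deposited table were -5.51 at Map4k2 beside Men1, -4.40 at Gt(ROSA)26Sor beside Setd5, -4.39 at 5031425E22Rik beside Kmt2e and -4.15 at Dap3 beside Ash1l. The rest were -4.02 at 1110002L01Rik beside Asxl2, -3.71 at A930024E05Rik beside Kdm2b and -3.22 at Mir6374 beside Tet3. Men1, Kmt2e, Setd5 and Asxl2 had no site assigned to them; the site beside Men1 held 0, 2 and 0 reads in UTX-deficient libraries against 80, 62 and 56 in WT libraries, and that beside Kmt2e 7, 10 and 0 against 167, 143 and 98. Which gene such a site serves was not tested. Counting any lower site within 1 kb, whatever its assignment, 36 of the 55 genes had one.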

How the results depend on the processing

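Of 312 values recomputed, 297 kept their direction and their side of the threshold or stayed within the spread. Such agreement was nearly fixed in advance, because the authors' FDR chose the sites on the same reads and 99.7% of listed sites were lower. Every limma setting but the one without the near-empty library also kept that library. On simulated data the fit with all libraries recovered 0.5% of the planted changes. Those were 4-fold drops at 200 sites, with all others left at the WT level, a setting unlike these data. On the recovered reads the same fit called 99.7% of the 6735 sites lower. The count of sites higher in UTX-deficient cells was 0 at an FDR of 0.01 and 0 in limma without the near-empty library. The count of H3K9 methyltransferase genes with a lower site was 1 at an FDR of 0.01 and 1 when sites nearest to an end of their assigned gene alone were kept, an alternative chosen after seeing the data. The median log2 fold of the 45 sites, -3.86 in the authors' deposited table, was -4.42 in limma with all libraries, -5.04 with a pseudocount of 0.5, -3.00 with 4, -4.58 over sites averaging at least 10 normalized reads, and -4.79 to -4.01 when each library was left out (-4.46, -4.37 and -4.60 without the deepest, middle and shallowest WT library). The Ash1l difference was 0.08 without the near-empty library. No paired analysis was possible because the recovered libraries carry no replicate numbers.

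The depth limits the low end: 16 of the 44 lower sites held 1 to 3 reads over the UTX-deficient libraries, so their signal left has wide intervals. The table lists differing sites alone, so a gene with no site may have been tested and missed the threshold, or not tested. UTX-deficient values rest in effect on 2 libraries. Gene assignment is the authors', and binding says nothing here of the genes' expression, which was not measured.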
